A study of Mus musculus with 24 samples.

Results

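H3K9ac at gene promoters was compared between day 10 of differentiation and day 0 in a female mouse embryonic stem (ES) cell line and a G9a knockout made from it. A promoter was taken as 1 kb on either side of a gene's start, in the mm9 coordinates of the deposited gene table. A gene counted as day 10-only when a deposited H3K9ac peak touched its promoter in both day 10 lists (WT and knockout) and in neither day 0 list, and as day 0-only in the reverse case. Of 24016 genes, 800 (3.33%) were day 10-only and 142 (0.591%) were day 0-only, 942 in all. These counts depend on the lists and the peak threshold. Leaving out 1 peak list gave 1317 to 2498 day 10-only and 289 to 1275 day 0-only genes. Leaving out a list removes a requirement, so these counts could only rise. Peaks with a −log10 q of at least 2, taken in the lists of both days, gave 3353 and 6. The peak lists alone chose these genes. The expression values used beside them come from separate RNA libraries and were not part of the choice.

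All cells were of the line 16.7 Tsix +/TST, which carries the TST allele of Tsix on one X chromosome; the WT and knockout groups share this allele, and the knockout (KO) groups differ from WT by the deletion of G9a, the H3K9 methyltransferase encoded by Ehmt2. Day 10 cells had been taken off LIF, the cytokine that keeps ES cells undifferentiated, held in suspension for 4 days and plated on gelatin for 6 days, and day 0 cells were undifferentiated. H3K9ac was measured by chromatin immunoprecipitation and sequencing in 1 sample of each of the 4 groups (day 10 WT, day 10 KO, day 0 WT, day 0 KO), so WT and KO stand in as the 2 replicates of a day. Expression was measured by total RNA sequencing after removal of ribosomal RNA, with 3 libraries in each of the same 4 groups; nothing in the labels says how many knockout clones were used, and the p-values then measure only the spread between these libraries.

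Acetylation of lysine 9 of histone H3 is placed by acetyltransferases such as Kat2a (Gcn5) and Kat2b (Pcaf) and removed by histone deacetylases. It lies mainly around the starts of genes that are being transcribed or are ready to be, where it is read by bromodomain and YEATS domain proteins. The same residue can instead carry methyl groups, so that acetylation and G9a-dependent dimethylation exclude each other on one histone tail. As ES cells leave the undifferentiated state, promoters of lineage genes are known to gain acetylation, while promoters of genes particular to ES cells lose it.

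Promoter DNA of 3 day 10-only genes and 3 day 0-only genes is shown because these genes had the largest expression changes among the described members found in the RefSeq promoter table (build GRCm38.p6). Each run is the 250 bases before the gene's start, 5′ to 3′ on the gene's strand, with CG dinucleotides in capitals. The day 10-only set comes first, then the day 0-only set.
Acta1 (chr8:123894776-123895025, minus strand): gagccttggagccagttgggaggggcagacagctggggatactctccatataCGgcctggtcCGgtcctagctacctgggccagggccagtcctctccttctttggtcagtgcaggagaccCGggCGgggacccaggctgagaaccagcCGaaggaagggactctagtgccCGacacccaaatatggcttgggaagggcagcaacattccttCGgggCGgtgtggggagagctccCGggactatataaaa
Krt8 (chr15:102004343-102004592, minus strand): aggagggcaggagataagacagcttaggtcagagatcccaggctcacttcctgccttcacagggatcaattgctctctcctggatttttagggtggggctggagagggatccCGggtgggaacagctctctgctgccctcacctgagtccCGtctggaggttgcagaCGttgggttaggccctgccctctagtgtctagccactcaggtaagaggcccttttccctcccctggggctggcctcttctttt
Car4 (chr11:84957504-84957753, plus strand): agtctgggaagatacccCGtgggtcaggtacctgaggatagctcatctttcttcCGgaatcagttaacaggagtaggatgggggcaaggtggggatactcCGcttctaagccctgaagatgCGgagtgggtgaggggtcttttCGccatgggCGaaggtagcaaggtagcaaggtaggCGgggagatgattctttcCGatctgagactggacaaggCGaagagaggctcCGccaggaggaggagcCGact
Tcl1 (chr12:105222738-105222987, minus strand): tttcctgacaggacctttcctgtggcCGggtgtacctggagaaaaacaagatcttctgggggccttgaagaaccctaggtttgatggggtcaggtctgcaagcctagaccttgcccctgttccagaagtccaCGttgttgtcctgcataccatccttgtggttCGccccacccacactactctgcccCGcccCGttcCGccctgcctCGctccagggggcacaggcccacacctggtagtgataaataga
Aqp3 (chr4:41098184-41098433, minus strand): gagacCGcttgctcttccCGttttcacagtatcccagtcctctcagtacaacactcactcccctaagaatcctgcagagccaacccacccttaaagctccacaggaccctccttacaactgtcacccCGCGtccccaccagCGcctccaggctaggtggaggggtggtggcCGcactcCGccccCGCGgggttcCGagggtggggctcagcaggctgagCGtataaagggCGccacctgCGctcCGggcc
Serpinb6c (chr13:33905192-33905441, minus strand): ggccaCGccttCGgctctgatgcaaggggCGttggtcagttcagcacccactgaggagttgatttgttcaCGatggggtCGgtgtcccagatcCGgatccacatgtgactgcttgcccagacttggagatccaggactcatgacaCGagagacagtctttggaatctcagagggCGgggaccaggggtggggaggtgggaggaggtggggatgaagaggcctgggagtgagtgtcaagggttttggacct
The runs of Acta1, Krt8 and Car4 hold 9, 3 and 11 CG dinucleotides, and those of Tcl1, Aqp3 and Serpinb6c hold 7, 14 and 8. Krt8 therefore had the fewest CG of the 6 runs, and Aqp3 had the most. The promoter table held 608 of the 800 day 10-only genes (76.0%) and 94 of the 142 day 0-only genes (66.2%), and base composition was not compared between the sets.

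The 4 peak lists differed in strength as well as in position. The day 10 lists held 37310 peaks in WT and 51501 in KO, and the day 0 lists held 63050 in WT and 37704 in KO. Peaks with a −log10 q of at least 2, the authors' measure of significance after correction for multiple testing, made up 17.9% of the day 10 WT list and 12.4% of the day 10 KO list, against 2.88% of the day 0 WT list and 7.77% of the day 0 KO list. A peak touched the promoter of 12206 genes in day 10 WT and 12521 in day 10 KO, against 11946 in day 0 WT and 9602 in day 0 KO. At the 7946 genes with a promoter peak in all 4 lists, the median fold enrichment was 4.43 in day 10 WT and 4.42 in day 10 KO, against 3.05 in day 0 WT and 3.23 in day 0 KO. A gain of H3K9ac at 800 promoters and a generally stronger immunoprecipitation at day 10 cannot be told apart from the lists alone. With 2 lists on each side the smallest exact 2-sided p is 0.333, so no test was made of the difference in peaks.

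**Figure D1:**
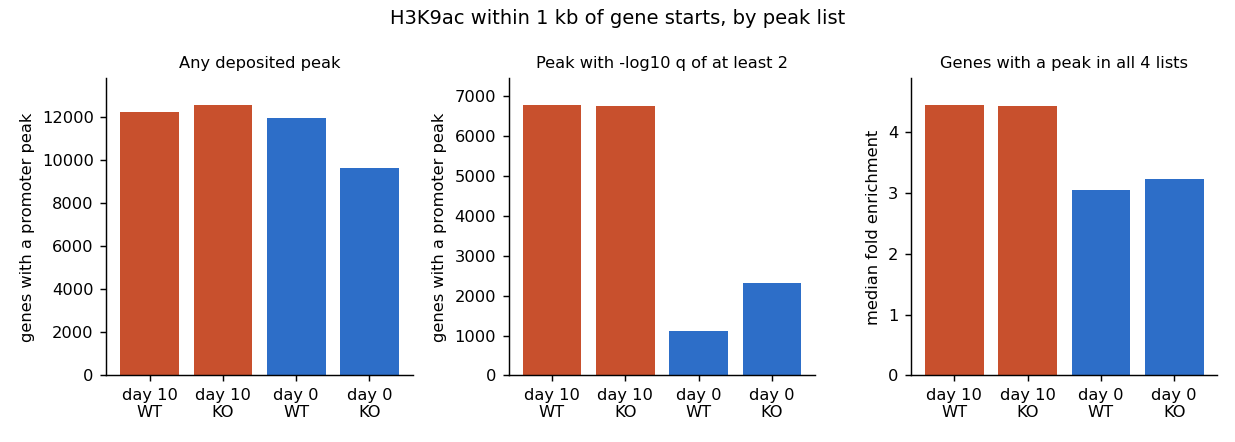
Genes with a promoter peak in each of the 4 H3K9ac lists (left), genes whose promoter peak has a −log10 q of at least 2 (middle), and the median of the authors' fold enrichment at the 7946 genes with a peak in every list (right), with 1 sample per bar and no error. The number of genes with any peak runs from 12521 in day 10 KO to 9602 in day 0 KO, while strict peaks number 6767 and 6756 genes in the day 10 lists and 1106 and 2313 in the day 0 lists.

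Most of the peaks that made a gene a member were weak. In the 800 day 10-only genes the fold enrichment, as given by the authors for each peak, had a median of 2.91 in WT (range 2.25 to 6.12) and 2.84 in KO (range 2.23 to 8.31). A −log10 q of at least 2 was reached at 125 of these genes in WT (15.6%), at 113 in KO (14.1%) and at 47 in both (5.88%). In the 142 day 0-only genes the median was 2.48 in WT (range 2.24 to 4.03) and 2.53 in KO (range 2.20 to 4.30), and 1 gene in WT, 4 in KO and none in both reached that significance. The Spearman correlation of fold enrichment between the lines, a description over genes that share their libraries, was 0.42 across the day 10-only genes and 0.24 across the day 0-only genes.

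The peaks did not always lie on the start. The peak covered the start itself at 533 day 10-only genes in WT (66.6%) and 510 in KO (63.7%). In the day 0-only genes it did so at 63 in WT (44.4%) and 55 in KO (38.7%). A peak of day 0 lay within 5 kb of the start at 392 day 10-only genes (49.0%), and a peak of day 10 lay within 5 kb at 50 day 0-only genes (35.2%). Just inside the 1 kb limit, the farther day 10 peak lay 999 bases from the start of Fxyd7 and 998 from that of Lingo2, and just outside it lay 1003 bases from Ushbp1 and 1017 from Ebf3. In the day 0-only set Meox2 (992 bases) and Nrsn1 (968 bases) were the members nearest the limit, with Robo4 (1003 bases) just outside. The members closest to losing their place through a peak of the other day were Zmiz1, with a day 0 peak at 1002 bases, and Ehbp1l1, with a day 10 peak at 1020 bases.

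Protein-coding genes made up 736 of the day 10-only genes (92.0%) and 123 of the day 0-only genes (86.6%). Day 10-only genes were found on every chromosome listed, from 1.91% of the X-linked genes (20 of 1049) to 4.55% of the genes on chromosome 4 (65 of 1429). Members are not all separate observations: 105 day 10-only genes (13.1%) and 11 day 0-only genes (7.75%) shared their promoter window with another gene of the table, and 203 day 10-only genes fell into 95 groups whose neighbouring starts lay within 100 kb. Among these groups were Gbp7, Gbp3 and Gbp2 on chromosome 3, guanylate-binding proteins known as interferon-induced GTPases, and H19, Mir675 and Tnnt3 on chromosome 7. Mir675 lies inside H19, so the reads counted for it can also be counted for H19, and the authors' enrichment was the same for both genes in each list.

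Expression of the day 10-only genes was more often higher at day 10 than that of all genes tested, and expression of the day 0-only genes was more often lower. Of 20624 genes tested with limma on log2 of the scaled reads plus 1, taking the mean of the day differences in the 2 lines, 1068 (5.18%) were higher and 2257 (10.9%) were lower on day 10 at a Benjamini-Hochberg adjusted p under 0.05, and the median log2 change was −0.50. Of 779 day 10-only genes tested, 161 (20.7%) were higher and 41 (5.26%) were lower, with a median log2 change of 0.14. When the sets were defined by peaks with a −log10 q of at least 2, 7.36% of the day 10-only genes were higher and 7.75% lower, with a median of −0.19; with a fold enrichment of at least 3 the median was −0.077, and leaving out 1 peak list gave medians of −0.18 to 0.04. Of 135 day 0-only genes tested, 4 (2.96%) were higher and 47 (34.8%) were lower, with a median log2 change of −1.26. The 7891 tested genes with a promoter peak in all 4 lists had 4.54% higher and 12.3% lower, with a median of −0.32. After scaling by the relative log expression method the median of all genes was −0.28, with 1565 genes higher and 1318 lower, and the day 10-only genes had 23.8% higher and 2.70% lower. Without day 10 WT replicate 3, 5181 genes (25.5%) were lower, as were 54.5% of the day 0-only and 10.1% of the day 10-only genes, while 22.3% of the day 10-only genes were higher. Leaving out any other library except day 0 WT replicates 1 and 2 also moved the number of lower genes by more than 1.5 times, to 3534 without day 0 KO replicate 1 and to 1113 to 1415 without each of the rest.

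Membership in a set did not settle the direction of expression. No call was made for 577 of the 779 day 10-only genes and for 84 of the 135 day 0-only genes. Over all genes the same held for 17299 of the 20624 tested, a larger share than in either set. The middle 50% of the day 10-only genes spanned log2 changes of −0.46 to 0.87, and 435 of them (55.8%) lay above 0, against 26.1% of all genes tested. A mean over 10 scaled reads at day 0 was found for 717 of the 779 day 10-only genes (92.0%), against 81.5% of all genes tested and 97.4% of the genes with peaks in all 4 lists. Per kb of gene span, their median level was 5.10 scaled reads at day 10 and 3.91 at day 0. The day 0-only genes had 1.50 at day 10 and 3.34 at day 0, and the genes with peaks in all 4 lists had 16.3 at day 10 and 20.6 at day 0. Both sets were thus expressed at lower levels per length than the genes with a peak in every list. From the side of expression, 161 of the 1068 genes that rose (15.1%) were day 10-only, 358 (33.5%) had a peak in all 4 lists and 80 (7.49%) had a peak in none. Of the 2257 genes that fell, 47 (2.08%) were day 0-only and 970 (43.0%) had a peak in all 4 lists.

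**Figure D2:**
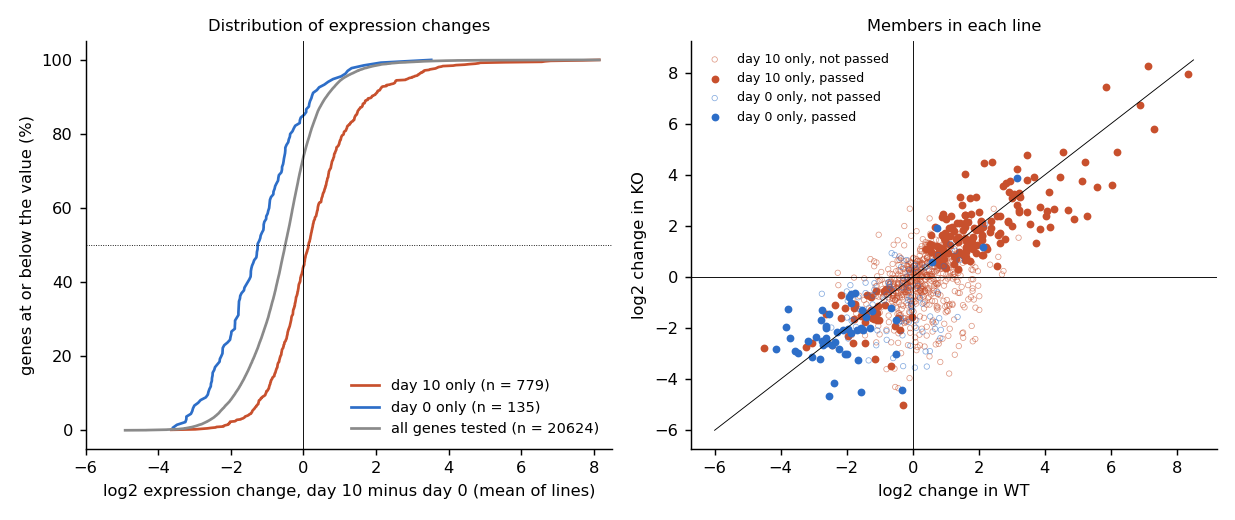
Left, the share of genes at or below each log2 expression change (day 10 minus day 0, mean of the lines) for 779 day 10-only genes, 135 day 0-only genes and all 20624 genes tested. Right, the log2 change in KO against that in WT for each member, with filled points for members passing limma on the mean of the lines. The curves cross 50% at 0.14, −1.26 and −0.50. The filled points lie where both lines changed in the same direction, which choosing them on the mean of the lines favours.

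Without a model, all 6 day 10 libraries lay above all 6 of day 0 for 104 day 10-only genes (13.4%), against 2.78% of all genes tested, and all lay below for 28 day 0-only genes (20.7%), against 4.28% of all genes tested.

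The share of genes called varied with the number of lists with a peak. Genes with a peak in both day 10 lists and 1 day 0 list (2327 tested) had 13.8% higher, and genes with a peak in 1 day 10 list and no day 0 list (1165 tested) had 6.01% higher. On the other side, 32.2% of the 304 tested genes with a peak in both day 0 lists and 1 day 10 list were lower, as were 16.0% of the 1284 with a peak in 1 day 0 list alone. Genes with no peak in any list (5901 tested) had 1.36% higher and 7.90% lower.

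**Figure D3:**
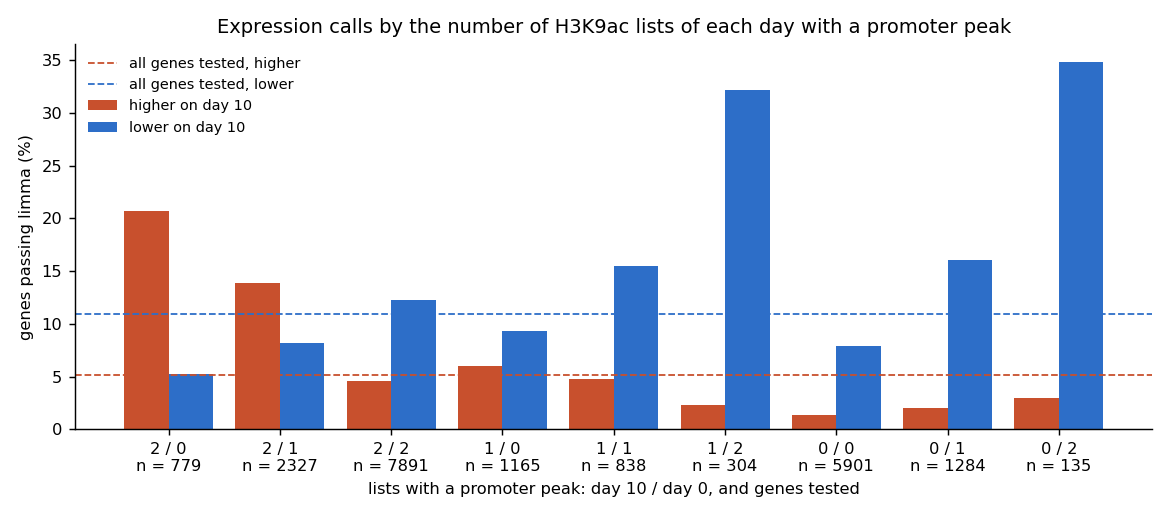
Percent of tested genes passing limma as higher or lower on day 10, grouped by how many of the 2 day 10 lists and how many of the 2 day 0 lists hold a promoter peak; dashed lines give the same percentages over all genes tested (5.18% and 10.9%). Day 10-only genes (2 / 0) have 20.7% higher, and day 0-only genes (0 / 2) have 34.8% lower.

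Within the sets, genes with stronger peaks had a larger share of calls, while the position of the peak gave no common order. With the day 10-only genes ordered by fold enrichment (taking the smaller value of the 2 lines), the upper 390 tested had 24.6% higher and 3.08% lower, and the lower 389 had 16.7% higher and 7.46% lower. Of the 46 tested genes with a −log10 q of at least 2 in both lists, 14 (30.4%) were higher and 1 was lower. Day 10-only genes whose peak covered the start in both lists had 24.1% higher, and the others had 17.5%. The same division of the day 0-only genes ran the other way, with 28.6% lower where the peak covered the start in both lists and 36.4% lower among the others. Of the day 0-only genes ordered in the same way, 41.2% of the upper 68 and 28.4% of the lower 67 were lower on day 10. These shares were not tested against each other. Across genes the Spearman correlation of fold enrichment with the log2 change was 0.14 over 779 day 10-only genes and −0.19 over 135 day 0-only genes.

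Many calls were made in both lines. In WT alone 88 day 10-only genes (11.3%) were higher and 12 (1.54%) lower, against 2.02% and 2.4% of all genes. In KO alone 92 (11.8%) were higher and 20 (2.57%) lower, against 2.43% and 6.46% of all genes. Of these WT and KO calls, 61 were higher in both lines (69.3% of the WT calls and 66.3% of the KO calls) and 4 lower in both. In the day 0-only genes 25 (18.5%) were lower in WT, 26 (19.3%) in KO and 16 in both. Calls shared by both lines were not counted over all genes, so this sharing cannot be called particular to the sets. All 161 day 10-only genes called higher and all 47 day 0-only genes called lower on the mean of the lines had the same sign in each line. The genes were chosen on that mean, which favours a shared sign. The 41 day 10-only genes called lower and the 4 day 0-only genes called higher had it too. Of genes described below, Dppa4, Fgf5 and Arhgap30 passed in WT but not in KO, and Myl9, Tpm2 and Speg in KO but not in WT. Hoxd3, Lamb1, Yeats2, Col1a1 and Fbxw10 passed on the mean of the lines but in neither line by itself. A test of the difference between the lines' day effects (KO minus WT) called 0 genes with limma (0.0% of genes in either direction; 1795 genes, 60 of them day 10-only, had an unadjusted p under 0.05). It called 0 with edgeR (1543 unadjusted) and 90 with DESeq2 (2762 unadjusted), 1 of them in each set, Gata3 and Pla2g1b.

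Depth and RNA content moved with the day. The 12 RNA libraries held 2081129 to 30527844 recovered reads. The 3 deep libraries, with 21087157 to 30527844, were all of day 0 (WT replicate 3, KO replicates 2 and 3), while the other 9 had 2081129 to 4220140. Rn45s, the ribosomal RNA precursor gene, made up 14.8% to 25.1% of the reads of these 9 but 0.115% to 0.129% of those of the deep 3. With depth as a term in the fit, 20.0% of the day 10-only genes were higher and 5.39% lower, against 5.84% and 12.9% of all genes tested, and 34.8% of the day 0-only genes were lower. The 9 shallow libraries leave day 0 KO with 1 library, replicate 1, which is assumed to vary like the other groups. In those 9 alone, 13.2% of the day 10-only genes were higher and 1.42% lower, against 2.92% and 2.19% of all genes tested, and 0.769% of the day 0-only genes were higher and 15.4% lower. Reads over 1459 olfactory and vomeronasal receptor genes, which these cells are not known to use, summed to 1093 CPM (of recovered reads) in day 10 WT replicate 3 and 1072 in day 0 KO replicate 1, the library that alone stood for day 0 KO above, against 31.1 to 377 in the other 10 libraries. Without those 2 libraries, 26.5% of the day 10-only genes were higher and 13.3% lower, against 7.73% and 32.0% of all genes, and 54.9% of the day 0-only genes were lower. The 14 fibroblast markers summed to 293 to 1529 CPM at day 10 and 193 to 1400 at day 0, the highest day 0 value being that of WT replicate 1; their part in the results was not tested. Ehmt2, counted over its whole span, had 629 ± 129 scaled reads in day 10 KO and 1125 ± 353 in day 10 WT, and 458 ± 92.1 in day 0 KO and 1155 ± 199 in day 0 WT (SD, n = 3 each); the deleted stretch is not given, so reads outside it are included.

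ES cells were checked against their own markers. Counts for this list and those below stand beside 5.18% higher and 10.9% lower over all genes tested. For membership, 3.33% of all genes were day 10-only and 0.591% were day 0-only. Of 31 genes listed under naive pluripotency 24 fell and none rose. Among those that fell was Pou5f1, the octamer-binding factor that ES cells depend on, which is not limited to the naive state. Pou5f1 averaged 1461 scaled reads at day 10 and 3128 at day 0. In bulk samples fewer cells of a type and less RNA per cell cannot be told apart. Of these 31 genes, 19 kept a promoter peak in all 4 lists, and 2, Tcl1 and Dppa4, were day 0-only.

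The day 10-only genes with the largest rises included Acta1, H19, Krt8, Car4 and Epn3. Acta1, skeletal muscle actin (chr8:126415658-126418675, minus strand, mm9), had 138 to 1036 scaled reads in the 6 day 10 libraries (median 486), against 0 to 4.56 in the 6 day 0 libraries (median 1.03). The groups did not overlap, the log2 change was 7.68 ± 0.58 (SE) and the limma adjusted p was 2.33e-06. Its peaks had fold enrichments of 2.62 in WT and 2.23 in KO, the KO value being the lowest of the day 10-only set in that list. Acta1 was near the limits of its set. Its −log10 q was 0.38 in WT and 0 in KO, the KO peak lay 954 bases from the start, and the nearest day 0 peak 1444 bases.

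Krt8, the keratin that pairs with Krt18 in simple epithelia and trophoblast (chr15:101827142-101834773, minus strand, mm9), had 1589 to 4354 scaled reads at day 10 (median 3361), against 15.6 to 50.1 at day 0 (median 32.9). All day 10 libraries lay above all of day 0, with a log2 change of 6.65 ± 0.25 and a limma adjusted p of 4.09e-09. Krt8 also had one of the stronger peaks of the set, at 4.52-fold in WT and 5.08-fold in KO, and its promoter run, printed above, has 3 CG. Car4, a membrane-bound carbonic anhydrase, had 746 to 1756 at day 10 (median 1135), against 3.54 to 45.9 at day 0 (median 32.7), a log2 change of 5.54 ± 0.46 (limma adjusted p = 5.27e-06). Epn3, an epsin of endocytosis, had 65.9 to 201 at day 10 (median 91.6), against 0 to 7.07 at day 0 (median 2.69), a log2 change of 4.87 ± 0.58 (limma adjusted p = 1.17e-04). In neither gene did the groups overlap.

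Of the 18 trophoblast and caudal genes listed, 11 rose and none fell, and 4 were day 10-only: Krt8, Gata3, Plac1 and Tfap2c. Gata3, a zinc finger factor of trophoblast and other epithelia, had 198 to 346 scaled reads at day 10 (median 253), against 10.6 to 71.3 at day 0 (median 33.3), with no overlap. Its log2 change was 2.87 ± 0.32 (limma adjusted p = 6.26e-05). Plac1, a placenta-enriched X-linked gene, had 37.1 to 162 at day 10 (median 96.3) and 8.35 to 37.4 at day 0 (median 18.9), which overlap by a narrow margin, with a log2 change of 2.28 ± 0.41 (limma adjusted p = 0.00219). Tfap2c, an AP-2 factor with a day 0 peak 1386 bases from its start, outside the window, did not pass the test: it had 198 to 686 at day 10 (median 487) and 509 to 893 at day 0 (median 716), a log2 change of −0.65 ± 0.28 (limma adjusted p = 0.122). Cdx4, a caudal homeobox gene, was day 0-only and had 6.18 to 27.8 at day 10 (median 16.8) and 0 to 15.6 at day 0 (median 9.58), which overlap (log2 change 1.04 ± 0.71, limma adjusted p = 0.302).

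**Figure D4:**
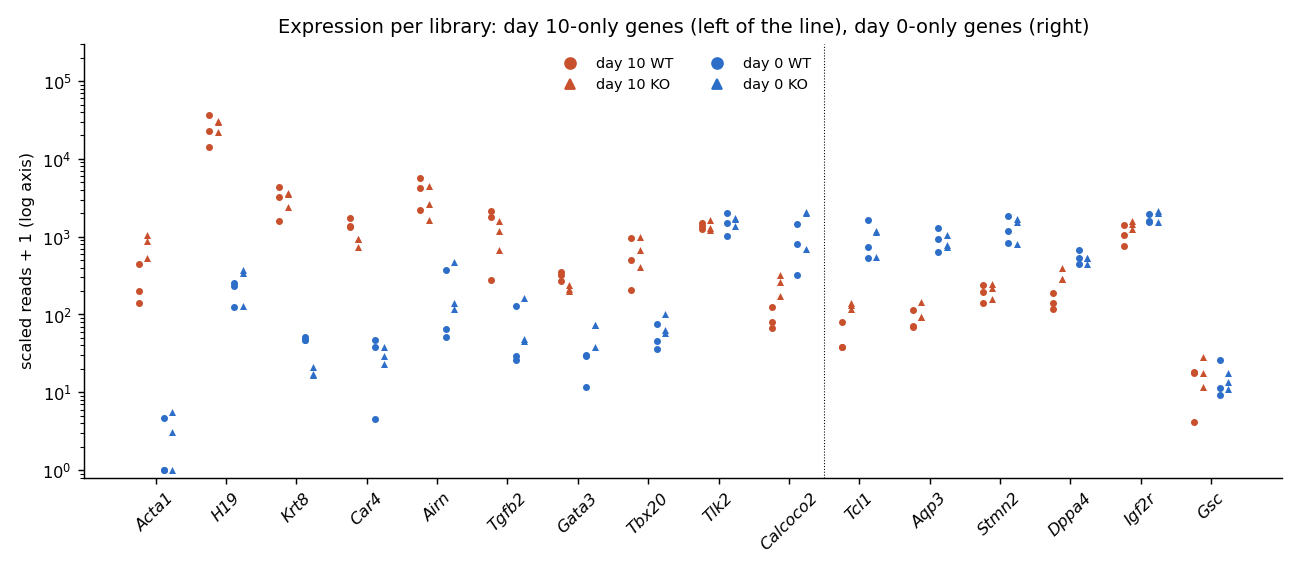
Scaled reads plus 1 (log axis) of described genes in each of the 12 RNA libraries, with day 10 left of day 0 for each gene, circles for WT and triangles for KO. Day 10 and day 0 libraries separate for Acta1, H19, Krt8, Car4, Airn, Tgfb2, Gata3 and Tbx20 (higher) and for Calcoco2, Tcl1, Aqp3, Stmn2 and Dppa4 (lower), and overlap for Tlk2, Igf2r and Gsc.

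Of 24 imprinted genes, which are expressed from one parental copy, 16 rose and 1 fell, and 4 were day 10-only: H19, Airn, Magel2 and Plagl1. H19, a noncoding RNA beside Igf2 (chr7:149761437-149764051, minus strand, mm9), had 14101 to 37049 scaled reads at day 10 (median 25969), against 124 to 368 at day 0 (median 240). Its groups were far apart, with a log2 change of 6.80 ± 0.31 (limma adjusted p = 2.47e-08). Magel2, of the Prader-Willi region, had 74.1 to 210 at day 10 (median 188), against 12.2 to 24.9 at day 0 (median 15.4), also without overlap (log2 change 3.20 ± 0.37, limma adjusted p = 9.77e-05). Plagl1, a zinc finger factor, had 216 to 479 at day 10 (median 385) and 154 to 543 at day 0 (median 308), and its groups overlapped (log2 change 0.26 ± 0.23, limma adjusted p = 0.436).

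Airn and Igf2r, a pair of overlapping genes on chromosome 17 transcribed from opposite strands, fell into opposite sets. Airn is the noncoding RNA known to silence Igf2r on the paternal copy. It was day 10-only, with 3.75-fold enrichment in WT and 5.89-fold in KO, and had 1615 to 5654 scaled reads at day 10 (median 3401), against 50.1 to 473 at day 0 (median 128). The groups did not overlap (log2 change 4.44 ± 0.50, limma adjusted p = 6.81e-05). Igf2r, the receptor that clears Igf2, was day 0-only, with 2.25-fold enrichment in WT and 2.73-fold in KO. It had 750 to 1587 scaled reads at day 10 (median 1331) and 1535 to 2140 at day 0 (median 1751), a log2 change of −0.55 ± 0.20 that did not pass (limma adjusted p = 0.0684). Without day 0 KO replicate 1 it did pass (−0.62, limma adjusted p = 0.0290). The strand of the RNA libraries is not given, so reads of the stretch that Airn and Igf2r share cannot be told apart.

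Of 21 smooth muscle and contractile genes 14 rose and none fell, and 3 were day 10-only: Acta1, Tpm2 and Myl9. Myl9, a regulatory myosin light chain of smooth muscle, had 28.7 to 537 scaled reads at day 10 (median 126) and 12.8 to 35.4 at day 0 (median 18.8), with some overlap (log2 change 2.81 ± 0.44, limma adjusted p = 9.60e-04). Tpm2, beta-tropomyosin, had 224 to 701 at day 10 (median 473), against 68.7 to 212 at day 0 (median 102), without overlap (log2 change 2.01 ± 0.32, limma adjusted p = 9.21e-04). Of the 21 genes, 7 had a peak in all 4 lists and 4 had a peak in none. Myl7, an atrial light chain, was day 0-only and had 2.70 to 32.9 at day 10 (median 14.2) and 17.7 to 84.3 at day 0 (median 42.6), with a log2 change of −1.75 ± 0.67 (limma adjusted p = 0.0844).

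Among secreted signals, 13 of 32 rose and none fell, with Tgfb2 and Wnt4 day 10-only. Tgfb2, a transforming growth factor, had 275 to 2148 scaled reads at day 10 (median 1401), against 25.1 to 162 at day 0 (median 46.2), and its groups did not overlap (log2 change 4.20 ± 0.55, limma adjusted p = 2.55e-04). In the 9 shallow libraries alone it missed the threshold (3.44, limma adjusted p = 0.0550). Wnt4 had 119 to 296 at day 10 (median 212), against 16.3 to 25.1 at day 0 (median 20.9), again without overlap (log2 change 3.25 ± 0.32, limma adjusted p = 2.43e-05). Fgf5, a growth factor of the primed epiblast, had 76.2 to 218 at day 10 (median 117), against 0 to 34.3 at day 0 (median 15.7); the log2 change was 3.56 ± 0.61 (limma adjusted p = 0.00172). Sox3, also of the primed list, was day 0-only and had 43.2 to 242 at day 10 (median 106) and 28.2 to 181 at day 0 (median 49.6), with a log2 change of 0.81 ± 0.42 (limma adjusted p = 0.182). It passed without day 0 KO replicate 1 (1.12, limma adjusted p = 0.0462). Of the 10 primed genes 5 rose and 1 fell.

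Of 28 mesoderm factors 12 rose and none fell, with Tbx20 and Meis1 day 10-only and Gsc day 0-only. Tbx20, a T-box factor of the heart, had 204 to 1000.5 scaled reads at day 10 (median 583), against 35.4 to 99.6 at day 0 (median 59.4), without overlap (log2 change 3.19 ± 0.37, limma adjusted p = 1.03e-04). Meis1, a homeobox cofactor, had 67.4 to 302 at day 10 (median 142) and 35.9 to 277 at day 0 (median 75.4), which overlap (log2 change 0.75 ± 0.45, limma adjusted p = 0.242; without day 0 KO replicate 1, 1.12 and 0.0467). Gsc, goosecoid, a homeobox gene of the organizer, had one of the strongest peaks of the day 0-only set (3.57-fold in WT, 3.22-fold in KO) yet few reads: 3.09 to 27.8 at day 10 (median 16.4) and 8.35 to 24.8 at day 0 (median 11.3). Its log2 change was 0.019 ± 0.58 (limma adjusted p = 0.983).

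Hox genes, which set position along the body axis, were spread over the classes. Of 39, 8 rose and 2 fell; Hoxa4, Hoxd3 and Hoxd8 were day 10-only, Hoxa10 and Hoxd1 were day 0-only, and none had a peak in all 4 lists. Hoxd3 was the member that rose, with 40.1 to 167 scaled reads at day 10 (median 156) and 20.8 to 99.6 at day 0 (median 29.1), an overlap, and a log2 change of 1.87 ± 0.44 (limma adjusted p = 0.0114). In the 9 shallow libraries alone it did not pass (1.22, limma adjusted p = 0.135). Hoxa4, Hoxd8 and Hoxa10 had log2 changes of −1.24, 0.67 and 0.18 with limma adjusted p of 0.311, 0.347 and 0.823. Hoxd1, although day 0-only by its peaks, had 15.4 to 90.6 at day 10 (median 59.9) and 0 to 36.4 at day 0 (median 17.1), with a log2 change of 2.13 ± 0.81 (limma adjusted p = 0.0840); DESeq2 called it higher (1.96, adjusted p = 0.00479).

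Among the endoderm genes (8 of 24 higher, 2 lower) and the extracellular matrix genes (5 of 24 higher, 1 lower), 2 each were day 10-only. Over all genes tested 5.18% were higher and 10.9% lower, and 3.33% of all genes were day 10-only. Lamb1, a laminin chain of basement membranes, had 1523 to 3128 scaled reads at day 10 (median 2395), against 897 to 1217 at day 0 (median 1157), without overlap (log2 change 1.00 ± 0.21, limma adjusted p = 0.00544). Col1a1, the main chain of type I collagen and also a fibroblast marker, had 543 to 5302 at day 10 (median 3021) and 47.8 to 3997 at day 0 (median 80.1). The groups overlapped through 2 day 0 libraries, WT replicate 1 (3997) and KO replicate 1 (925), and the call (log2 change 3.45 ± 0.97, limma adjusted p = 0.0281) was lost without any of 7 single libraries, day 0 KO replicates 2 and 3, day 0 WT replicates 2 and 3, day 10 KO replicates 2 and 3 and day 10 WT replicate 2, with limma adjusted p of 0.0672 to 0.0839. It was also not called by edgeR (2.06, adjusted p = 0.185) or DESeq2 (2.11, adjusted p = 0.151). Thbs1, thrombospondin 1, had 1112 to 4444 at day 10 (median 1934) and 237 to 5471 at day 0 (median 476); its log2 change of 1.40 ± 0.65 did not pass (limma adjusted p = 0.142) but did without day 0 WT replicate 1 (2.11, limma adjusted p = 0.00598).

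The remaining lists touched few members. Ftx, a noncoding gene of the X inactivation center known to promote Xist expression, was day 10-only and had 411 to 1210 scaled reads at day 10 (median 583) and 253 to 707 at day 0 (median 398), an overlap, with a log2 change of 0.65 ± 0.28 (limma adjusted p = 0.115; without day 0 WT replicate 1, 0.89 and 0.0215). Of the 8 genes of that list 2 rose and 3 fell. Yeats2, the reader of acetylated H3 in the ATAC acetyltransferase complex, was the 1 day 10-only gene among 21 writers, erasers and readers of H3K9 acetylation, of which 2 rose and 1 fell. It had 1495 to 1979 scaled reads at day 10 (median 1630), against 909 to 1207 at day 0 (median 1090), without overlap. Its log2 change of 0.63 ± 0.17 passed narrowly (limma adjusted p = 0.0216) and missed the threshold without day 0 KO replicate 2 or 3, day 0 WT replicate 3, day 10 KO replicate 2 or 3, or day 10 WT replicate 2 (limma adjusted p 0.0521 to 0.0624). Beside 5.18% higher and 10.9% lower over all genes tested, the other lists were as follows. Of 21 neural genes 1 rose and 4 fell, of 14 fibroblast markers 2 rose and 2 fell, of 17 endothelial and blood genes tested 2 rose and 6 fell, of 17 germline genes none rose and 9 fell, and of 12 two-cell-like genes tested none rose and 2 fell. The last 3 lists held no member of either set.

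Of the 5 day 10-only genes with the strongest peaks, 1 passed the expression test. Most of the 5 had a day 0 peak not far outside the 1 kb window. The nearest lay 1027 bases from the start of Ankrd40, 1115 from Mir1982, 1419 from Tlk2 and 1540 from Ahnak. For Klhl9 it lay 20077 bases away. The nearest day 10 peaks of Mir1982 lay 852 (WT) and 847 (KO) bases from its start, and those of Tlk2 698 and 625. Tlk2, a chromatin kinase, had the peak with the highest smaller enrichment but one, 5.98-fold in WT and 8.31-fold in KO, and 1232 to 1654 scaled reads at day 10 (median 1345) and 1015 to 2005 at day 0 (median 1577). Its groups overlapped, with a log2 change of −0.13 ± 0.20 (limma adjusted p = 0.650), and under scaling by relative log expression the value was 0.12. The microRNA gene Mir1982, with 6.12-fold in WT and 8.29-fold in KO, had 0 to 7.93 scaled reads at day 10 and 0 to 1.65 at day 0. Ahnak, a giant scaffold protein of the cell cortex, was the member of this group that rose: it had 5.42-fold enrichment in WT and 5.15-fold in KO, with 4717 to 11658 scaled reads at day 10 (median 10372), against 1491 to 2778 at day 0 (median 2178), without overlap (log2 change 2.03 ± 0.27, limma adjusted p = 2.59e-04). Klhl9 and Ankrd40 had 4.96-fold and 4.93-fold enrichment in WT, with log2 changes of 0.56 ± 0.37 and −0.016 ± 0.30 (limma adjusted p = 0.278 and 0.972).

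Some day 10-only genes fell. Calcoco2, an autophagy receptor, had 66.1 to 318 scaled reads at day 10 (median 148), against 321 to 2097 at day 0 (median 1116), groups that stand just apart, with a log2 change of −2.80 ± 0.38 (limma adjusted p = 2.95e-04). Tspan17, a tetraspanin, had 7.93 to 19.2 at day 10 (median 11.9), against 88.2 to 128 at day 0 (median 102), a log2 change of −2.98 ± 0.37 (limma adjusted p = 1.47e-04). The nearest day 0 peak lay 2251 bases from the start of Calcoco2 and 2493 bases from that of Tspan17.

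The day 0-only genes that fell most included Tcl1, Aqp3 and Serpinb6c. Tcl1, a coactivator of the Akt kinase and an ES cell gene (chr12:106454965-106460947, minus strand, mm9), had 37.1 to 139 scaled reads at day 10 (median 98.0), against 538 to 1647 at day 0 (median 949). The groups did not overlap, and the log2 change was −3.48 ± 0.32 (limma adjusted p = 1.26e-05). Its peaks had 2.92-fold enrichment in WT and 2.90-fold in KO. Aqp3, a water and glycerol channel (chr4:41039757-41045216, minus strand, mm9), had 69.0 to 142 at day 10 (median 91.5), against 640 to 1290 at day 0 (median 860), again apart (log2 change −3.23 ± 0.24, limma adjusted p = 2.48e-06). Serpinb6c, a serine protease inhibitor, had 9.26 to 51.7 at day 10 (median 35.6), against 127 to 550 at day 0 (median 296), with a log2 change of −3.22 ± 0.46 (limma adjusted p = 4.46e-04).

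Stmn2, a microtubule-binding stathmin of neurons, was the 1 neural gene in the day 0-only set, with 141 to 244 scaled reads at day 10 (median 205), against 806 to 1855 at day 0 (median 1371). Its groups did not overlap (log2 change −2.69 ± 0.26, limma adjusted p = 2.51e-05). Dppa4, a chromatin protein of pluripotent cells, had 118 to 397 at day 10 (median 236), against 442 to 665 at day 0 (median 527), also apart (log2 change −1.26 ± 0.21, limma adjusted p = 0.00132). It passed in WT (−1.87, limma adjusted p = 0.00252) but not in KO (−0.65, limma adjusted p = 0.147). Of the 5 day 0-only genes with the strongest peaks, 3 passed the expression test and Gsc and Rnf165 did not. Among the 3 were Arhgap30 (4.03-fold in WT, 2.99-fold in KO), a GTPase-activating protein, and Triml2 (2.91-fold in WT, 3.80-fold in KO), a TRIM family-like gene. Both fell, Arhgap30 with a log2 change of −1.98 ± 0.33 (limma adjusted p = 0.00143) and Triml2 with −2.31 ± 0.35 (limma adjusted p = 6.98e-04). Triml2 was day 0-only by a narrow margin. Its day 0 WT peak lay 948 bases from the start, and its day 10 peaks lay 1034 (WT) and 1180 (KO) bases away. The nearest day 10 peak lay 1390 bases from the start of Arhgap30 and 1665 from that of Fbxw10. Fbxw10, an F-box gene, had 3.97 to 46.6 scaled reads at day 10 (median 21.1) and 41.8 to 110 at day 0 (median 78.6), a narrow overlap, with a log2 change of −1.88 ± 0.53 (limma adjusted p = 0.0289). Its call was lost without any single library except day 0 WT replicate 2, day 0 KO replicate 1, day 10 WT replicate 3 and day 10 KO replicate 2 (limma adjusted p 0.0505 to 0.0687). Rnf165 had a log2 change of −0.97 ± 0.45 (limma adjusted p = 0.140; without day 10 WT replicate 3, −1.22 and 0.0491).

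The 4 day 0-only genes that rose were Pitx1, Frem2, Speg and Sept9, named here for being all of them. Frem2, an extracellular matrix protein of epithelial basement membranes, had 402 to 1132 scaled reads at day 10 (median 730), against 154 to 327 at day 0 (median 202), without overlap (log2 change 1.66 ± 0.25, limma adjusted p = 6.27e-04). Speg, a striated muscle kinase, had 229 to 437 at day 10 (median 292), against 60.2 to 195 at day 0 (median 147), also apart (log2 change 1.32 ± 0.29, limma adjusted p = 0.00766), and it did not pass in the 9 shallow libraries alone (0.79, limma adjusted p = 0.108). Pitx1, a homeobox gene of the hindlimb, and Sept9, a septin, had log2 changes of 3.52 ± 0.75 and 0.57 ± 0.19 (limma adjusted p = 0.00673 and 0.0488). In both of them the day 10 and day 0 libraries overlapped.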

How the data were processed

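H3K9ac peaks and RNA were analysed; H3K9me2 and input samples were not used beyond what the peak lists already hold. Per the submitters' processing notes, RNA reads went through TopHat and HOMER and ChIP reads through Novoalign and MACS2, on mm9. Versions, the MACS2 control, strand and multi-mapping rules are not given in the sources used here. The deposited peak lists give, per the file headers, a fold enrichment (ratio), a −log10 p-value and a −log10 q-value per peak, and were called by the authors per sample. The lowest −log10 p listed is 2.0, so weaker peaks are not seen. The gene table deposited by the authors holds signal, reads per gene span scaled to a common total, where counts had been possible. Each library's values are whole reads times 1 factor, so the reads were recovered (100% whole within 0.006 scaled reads); their number limits the precision of low genes.

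The members and gene lists were chosen with earlier results of these data known. Peak and promoter overlap was at least 1 base. All 12 RNA libraries entered 1 limma 3.58.1 fit (R 4.3.3, trend, robust) on log2(value + 1), over genes above 1 in at least 3 libraries, with group means as the only terms. Log2 changes are on that scale, which understates low genes, and errors are SE unless given as SD. Alternatives were edgeR 4.0.16 (quasi-likelihood) and DESeq2 1.42.0 on the recovered reads, other scalings, pseudocounts, filters, windows and peak thresholds, and each library or list left out. Only the limma fit was tested on simulated counts with planted changes, not edgeR or DESeq2. The simulated libraries did not differ in ribosomal RNA or receptor reads as the real ones do. Day 0 KO replicates 2 and 3 were the most alike pair but differed beyond counting noise (chi-square of 2.65 per gene), and no libraries were merged. That value cannot tell whether they came from separate cultures. In KO 502 genes were higher and 1332 lower, against 175 and 129 without replicate 2 and 165 and 120 without replicate 3. Without day 0 KO replicate 1 they were 737 and 2152, and without day 10 KO replicate 3 they were 113 and 86. Named genes were, in each set, the 6 highest and 3 lowest changes that passed without overlap (predicted genes, microRNAs and snoRNAs passed over), the 5 strongest peaks, up to 6 members of each list, and Ehmt2; not all are printed. Promoter sequences are RefSeq's (GRCm38.p6).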

Additional observations from a re-analysis of the deposited data

How the results depend on the processing

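Defining the sets with peaks of −log10 q of at least 2 gave 3353 day 10-only and 6 day 0-only genes, with fold enrichment of at least 3 it gave 2339 and 42, and with 5 kb for the day without a peak 408 and 92. Leaving out 1 peak list gave 1317 to 2498 and 289 to 1275, and could only add genes, since it removes a requirement. With the −log10 q limit, 7.36% of day 10-only genes were higher and 7.75% lower (median −0.19), and 0% of day 0-only genes were higher and 50.0% lower; with the fold limit, 13.5% were higher (median −0.077), and 0% and 48.7% of day 0-only genes were higher and lower. Leaving out 1 peak list, 14.1% to 17.8% of day 10-only genes were higher and 6.28% to 8.25% lower (median −0.18 to 0.04), and 1.33% to 4.01% of day 0-only genes were higher and 16.9% to 35.0% lower (median −1.32 to −0.98). The 46 members with strict peaks in both lists had 30.4% higher and 2.17% lower. Each set made without 1 list holds the main set plus genes with other combinations of lists. The −log10 q and fold limits applied to both days, so genes with only weaker peaks on the other day could enter a set. How far each of these moved the shares was not tested.

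Of the day 10-only genes, 27.5% were higher with DESeq2 (median 0.39), 25.4% with edgeR, 23.8% under relative log expression (median 0.39; 2.70% lower), 13.2% in the shallow libraries (1.42% lower), 26.5% without the 2 libraries with receptor reads (13.3% lower), and 17.5% at a log2 change of at least 1. Of the day 0-only genes 0.769% were higher and 15.4% lower in the shallow libraries, and 54.9% were lower without those 2 libraries. Leaving out 1 RNA library gave 15.8% to 24.2% of day 10-only genes higher and 2.70% to 10.1% lower (median 0.10 to 0.19), and 2.22% to 4.44% of day 0-only genes higher and 24.4% to 54.5% lower (median −1.46 to −1.09).

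Over all genes, 1986 were higher with DESeq2 and 578 in the shallow libraries, and 1318 were lower under relative log expression, 434 in the shallow libraries and 6382 without the 2 libraries. In WT 1840 genes were called with DESeq2, 1514 with a depth term, 566 in the shallow libraries and 2141 without the 2 libraries, against 911. In KO 3276 were called with DESeq2, 3012 with a depth term, 1046 with edgeR, 945 without a filter, 1054 at a pseudocount of 5, 130 in the shallow libraries and 5409 without the 2 libraries, against 1834. Leaving out 1 library gave 699 to 1335 higher, 1113 to 5181 lower (5181 without day 10 WT replicate 3, 1113 without day 0 KO replicate 2), 466 to 1389 in WT and 199 to 4496 in KO; the KO minus WT difference had 0 calls in each, and 90 with DESeq2.

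Same-numbered replicates of the 2 days did not deviate together (correlations −0.40 to −0.05 in WT and 0.00 to 0.11 in KO), and no pairing was assumed. The libraries also differed in depth and RNA content, so these correlations cannot exclude pairing. With a replicate block 1037 genes were higher and 2266 lower, and 19.5% of day 10-only genes were higher.

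Of 1260 values of named genes under the alternatives, 1183 kept direction and call, 35 lost the call, 13 gained it and 29 changed sign, all of genes that did not pass: Ankrd40 (0.19 with DESeq2, 0.24 under relative log expression, 0.46 with a depth term, 0.037 with edgeR, 0.61 in the shallow libraries, −0.22 to 0.20 leaving out 1 library), Gsc (−0.036 with a depth term, −0.0021 at a pseudocount of 0.1, −0.040 in the shallow libraries, −0.17 without the 2 libraries, −0.17 to 0.37 leaving out 1), Hoxa10 (−0.14 in the shallow libraries, −0.080 to 0.68 leaving out 1), Mir1982 (−0.21 to 0.58 leaving out 1), Tlk2 (0.10 with DESeq2, 0.12 under relative log expression) and Meis1 (−0.21 in the shallow libraries). Depth limits genes with few reads: 1 read is worth 0.285 to 4.18 scaled reads across the 12 libraries.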
